A study of Mus musculus with 18 samples.

Results

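The comparison described here is that of mouse embryonic fibroblasts (MEFs) labelled Ago2-/- and treated with thapsigargin against MEFs with the same label treated with the solvent DMSO. Its members are the 51499 rows of the deposited expression table that pair these groups, out of 772485 rows for all 15 pairs of 6 groups, and they rest on 6 of the 18 RNA-seq libraries of the series. Each group had 3 libraries, grown for 3 days before thapsigargin was given at 500 nM to the treated group. The authors pooled each group into 1 FPKM value per locus, a fragment count scaled for transcript length and for library size. The values therefore carry no replicate spread, the test columns deposited beside them were not used, no test of the difference is given, and the depth behind each value is unknown. Both groups share the label of a deletion of Ago2, the Argonaute protein that cuts RNA paired to its small guide RNA. The lines were a gift from another laboratory, and neither labels nor methods say which part of the gene was deleted. The remaining 4 groups were MEFs labelled Ago2-/- with tunicamycin, an inhibitor of protein N-glycosylation, and MEFs labelled Ago2+/+ (titled DCR1) with DMSO, thapsigargin or tunicamycin. The question of the study was whether AGO2 helps to lower particular mRNAs under stress of the endoplasmic reticulum (ER).

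Thapsigargin blocks the SERCA pumps that load the ER with calcium. ER chaperones need calcium, so its loss leaves proteins misfolded and sets off the unfolded protein response, which works through the sensors IRE1, PERK and ATF6. ATF6 and the IRE1 product XBP1 are known to raise chaperones and degradation factors, and PERK to slow translation while the transcription factor ATF4 and its target Ddit3 (CHOP) are made. In fibroblasts this response stands beside large programs for secreted matrix, growth factors and interferon-stimulated genes.

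The labels were checked first against the genes that bear on them. Ago2 (chromosome 15, 73090392 to 73184840, minus strand, GRCm38) stood at 5.61 FPKM in the DMSO group and at 20.7 FPKM in the thapsigargin group, although both are labelled as the knockout. Xist, the RNA that coats an inactive X chromosome, stood at 0.0105 FPKM under DMSO and 33.5 FPKM under thapsigargin. The 4 Y-linked genes examined were listed at 0 in both. The 1 chromosome Y locus that reached 1 FPKM in either group was Erdr1, a gene of the region shared by X and Y, listed at 0 under DMSO and at 6.08 FPKM under thapsigargin. Both Ago2 and Xist thus differed between groups to which the labels give the same line. The label fields of 1 of the 3 DMSO libraries (replicate 3) also conflict on genotype, which holds for 4 of the 18 libraries in all, and such a library could not be left out of a pooled value. Among the 15 pairs of groups, 3 pairs differed least, with between 1.36% and 2.35% of loci past 2-fold, and the other 12 lay between 14.4% and 19.7%. The thapsigargin group belonged to a close pair, with the Ago2+/+ DMSO group (2.35%). The DMSO group belonged to another, with the Ago2+/+ tunicamycin group (1.36%). Treatment and the origin of the libraries therefore cannot be told apart here. Below, "DMSO group" and "thapsigargin group" mean the groups with those labels and the label Ago2-/-, "Ago2+/+ DMSO group" and the like name the other groups by label, and every direction rests on these labels.

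As for cell type, 9 of 12 fibroblast markers reached 1 FPKM in the DMSO group and 10 of 12 in the thapsigargin group, led by Vim (vimentin, 2580.0 and 1290.4 FPKM) and S100a4 (1004 and 1926 FPKM). Thy1, a surface marker of many fibroblasts, was listed at 0 in both. Of 12 epithelial markers, Krt19 alone reached 1 FPKM, at 2.81 FPKM in the thapsigargin group. None of 8 endothelial markers did so in either group. Of 10 macrophage and leukocyte markers, Cd68 and Cd14 did so, Cd14 with 16.7 FPKM under DMSO and 4.6 FPKM under thapsigargin, while Ptprc and Csf1r stayed below 1 FPKM and Adgre1 was listed at 0. In such bulk samples, fewer cells of a type and less RNA per cell cannot be told apart.

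Loci entered the comparison with at least 1 FPKM in either group, and the log2 ratio was taken as log2((FPKM thapsigargin + 1)/(FPKM DMSO + 1)). A locus is called higher or lower below where this ratio passed 2-fold. Of 12274 loci that entered, 883 (7.19%) were higher and 1061 (8.64%) were lower in the thapsigargin group, 15.8% in all. Every count of list members below is to be read beside these shares. The median log2 ratio was -0.02, with quartiles at -0.41 and 0.36, and 5313 loci (43.3%) lay within 1.25-fold. Differences of at least 8-fold were found at 93 higher and 160 lower loci. Of the loci past 2-fold, 107 were listed at 0 in the DMSO group and 132 in the thapsigargin group. The share past 2-fold was 25.1% among loci with a mean of 1 to 10 FPKM, 8.97% from 10 to 100 FPKM and 7.37% above 100 FPKM. The plot of both levels shows the spread for each locus.

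**Figure D1:**
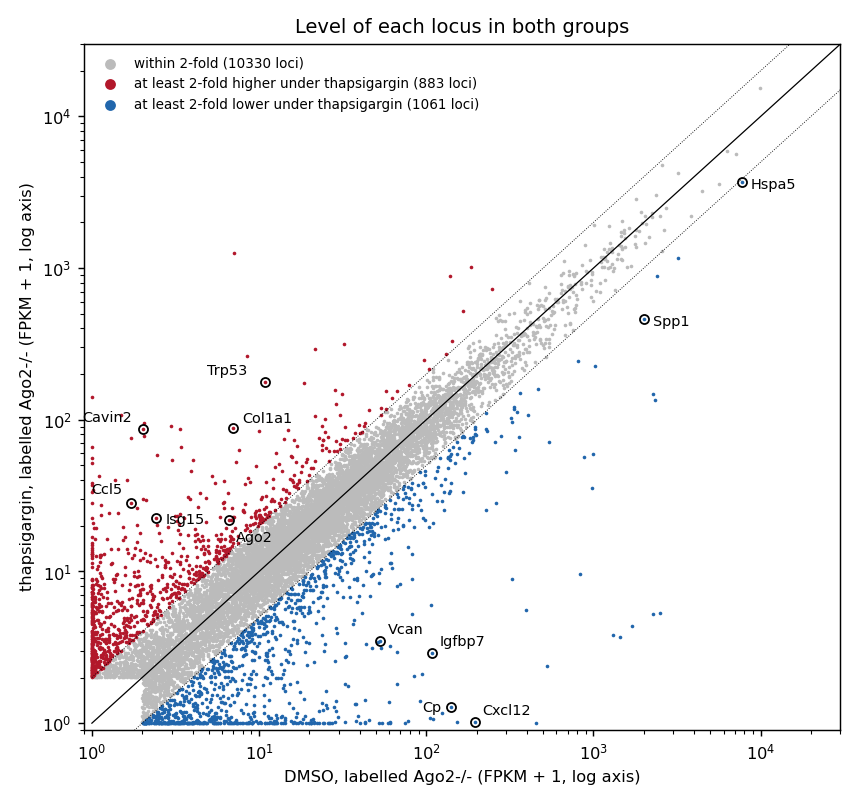
Level of each of 12274 loci in the DMSO group (x axis, FPKM + 1, log scale) and the thapsigargin group (y axis, same scale), both labelled Ago2-/-, 1 pooled value per group; dotted lines mark 2-fold. The 883 higher loci (red) and the 1061 lower loci (blue) reach down to the axes, where a gene is near 0 in either group, and Cavin2 (log2 ratio 5.42) and Cxcl12 (-7.59) lie far from the diagonal.

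No ER chaperone was higher in the thapsigargin group. Of 19 ER chaperones and folding enzymes, all of which entered, 0 were higher and 4 were lower (beside 7.19% and 8.64% of all loci), with a median log2 ratio of -0.47 against -0.02 over all loci. Hspa5 (BiP, the main ER chaperone and a gauge of ER stress) was at 7682 FPKM under DMSO and 3677 FPKM under thapsigargin (log2 ratio -1.06). Creld2, a secreted ER stress protein, was lower at 321 and 102 FPKM (log2 ratio -1.64). Both are made in larger amounts when ER proteins misfold. The cochaperones Dnajc3 (67.2 and 21.5 FPKM) and Dnajb9 (29.0 and 9.05 FPKM) were also lower. Hyou1, which recharges BiP with nucleotide, had 274 and 139.6 FPKM and stayed just inside 2-fold. Hsp90b1 (1639 and 1837 FPKM), the calcium-binding lectin Calr (1546 and 1575 FPKM) and its membrane relative Canx (334 and 368 FPKM) were nearly level. The list thus ranged from lower members such as BiP to level ones such as the lectins and Hsp90b1, with 15 of 19 inside 2-fold.

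The promoters of these chaperones are shown because they carry the site through which ATF6 is known to act. The ER stress element, CCAAT and CCACG with 9 bases between them, was searched on both strands of RefSeq promoters (GRCm38.p6, 250 bases before to 50 after each gene's start). It was found for 7 of the 13 listed chaperones with a promoter in that table and for 0.137% of all 27025 genes. It was present in 3 of the 4 genes that were lower (Hspa5, Dnajc3 and Creld2) and in 4 of 9 that were not (Hsp90b1, Calr, Canx and Pdia6), so the letters alone did not separate them. The stretches around the element follow, 5′ to 3′ on the strand of the gene, with the element in capitals.
Hspa5 (chr2:34771975-34772089, plus strand): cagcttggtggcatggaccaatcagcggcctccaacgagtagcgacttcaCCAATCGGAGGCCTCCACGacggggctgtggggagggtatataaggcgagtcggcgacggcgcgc
Creld2 (chr15:88819470-88819588, plus strand, element on the opposite strand): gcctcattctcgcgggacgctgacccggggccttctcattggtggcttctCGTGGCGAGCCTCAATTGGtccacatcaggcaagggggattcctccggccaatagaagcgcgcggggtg
Dnajc3 (chr14:118937777-118937895, plus strand): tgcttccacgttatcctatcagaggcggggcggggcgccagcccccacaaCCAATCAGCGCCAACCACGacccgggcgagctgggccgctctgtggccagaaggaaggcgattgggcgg
Hsp90b1 (chr10:86705588-86705694, minus strand): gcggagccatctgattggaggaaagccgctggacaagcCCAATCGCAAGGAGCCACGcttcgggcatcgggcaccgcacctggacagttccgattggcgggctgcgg
In Hspa5 the element ends 47 bases before the start, nearest of the 4, and in Hsp90b1 it ends 194 bases before it.

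Of 21 genes of the IRE1 arm and of ER-associated degradation, 19 entered, of which 0 were higher and 4 lower, with a median log2 ratio of -0.62. Past 2-fold were 21.1%, beside 15.8% of all loci. Lower were Atf6, the gene of the separate sensor ATF6 (66.6 and 24.8 FPKM), and Syvn1, the ubiquitin ligase of ER-associated degradation (94.7 and 37.5 FPKM). Sec24d, a coat protein of vesicles leaving the ER (97.7 and 34.8 FPKM), and Sec61b, of the translocation channel (194 and 85.9 FPKM), were lower too. Herpud1, which joins the degradation complex under stress, had 334 FPKM under DMSO and 207 FPKM under thapsigargin. Xbp1 was nearly level at 88.4 and 93.7 FPKM, counted over all its splice forms. The sensor gene Ern1 (IRE1) had 20.8 and 34.3 FPKM.

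The PERK and ATF4 targets were closer to level. Of 21 listed, 19 entered, 2 were higher and 1 was lower, with a median log2 ratio of -0.19. Their share past 2-fold, 15.8%, was that of all loci, so the count does not set them apart. Ddit3 had 339 FPKM under DMSO and 253 FPKM under thapsigargin, and in the other 4 groups it lay between 237 and 349 FPKM. Atf4 had 532 and 407 FPKM, and Trib3, a pseudokinase induced by CHOP, 119 and 105 FPKM. None of these marker genes was near 0 in the DMSO group. Higher were Fgf21, a stress hormone (1.62 and 8.46 FPKM), and Vldlr, a lipoprotein receptor (3.82 and 9.24 FPKM). Lower was Slc7a11, the cystine carrier (26.3 and 12.1 FPKM). Asns, which makes asparagine, was level at 188 and 197 FPKM, as was Chac1 at 82.3 and 84.4 FPKM.

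**Figure D2:**
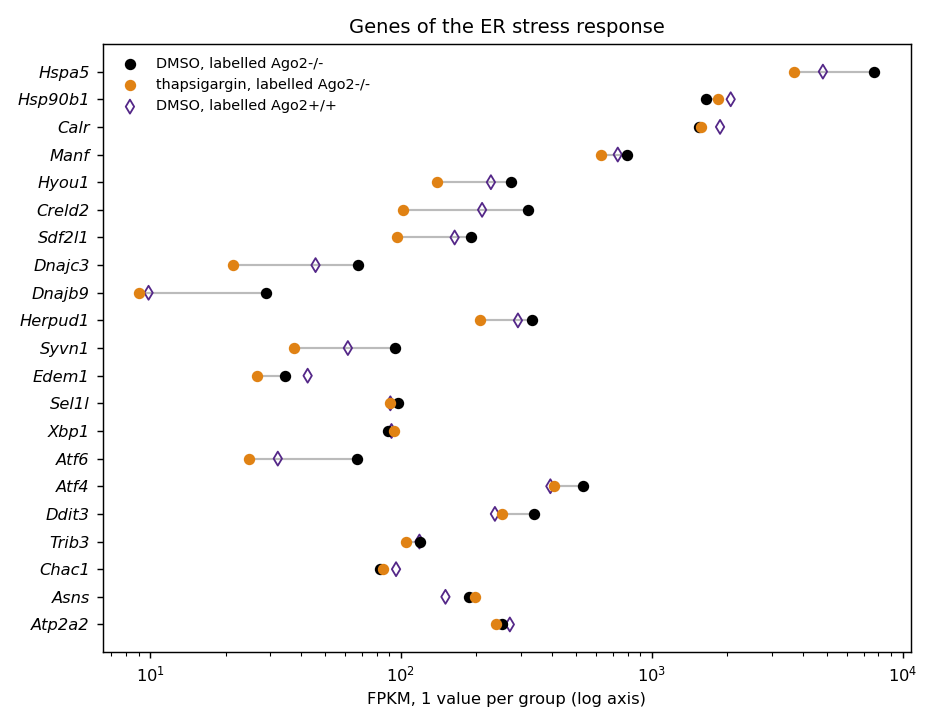
FPKM (x axis, log scale, 1 pooled value per group) of 21 ER stress genes (y axis) in the DMSO group (black), the thapsigargin group (orange) and the Ago2+/+ DMSO group (open diamonds). Hspa5, Creld2, Dnajc3, Dnajb9, Syvn1 and Atf6 were lower in the thapsigargin group, and for Creld2 its value of 102 FPKM lies below both DMSO groups.

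The target of the drug itself differed little. Atp2a2, the SERCA pump of most cells, was at 252 FPKM under DMSO and 239.5 FPKM under thapsigargin, and Atp2a3 at 1.13 and 1.25 FPKM. Of 21 ER calcium genes, 17 entered, with 2 higher, 0 lower and a median log2 ratio of 0.08. The share past 2-fold was 11.8%, beside 15.8% of all loci. The higher members were Stim2, a sensor of ER calcium (9.15 and 20.8 FPKM), and Trpc1, a cation channel (0.717 and 4.94 FPKM). The partner channel Orai1 had 7.04 and 13.1 FPKM and the sensor Stim1 6.72 and 9.7 FPKM. Among release channels, Itpr1 had 8.44 and 16.3 FPKM, while Ryr1, Ryr2 and Ryr3 were below 1 FPKM in both groups.

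The Ago2+/+ DMSO group differed from the thapsigargin group at only 2.35% of loci (1.21% higher and 1.14% lower in the thapsigargin group). Against it, the chaperone and IRE1 lists had no higher member. This is no separate repeat, since the thapsigargin values are the same and so few loci of any kind were higher. Of 19 chaperones, 0 were higher and 2, Creld2 and Dnajc3, lower (median log2 ratio -0.33), and of 19 members of the IRE1 list none passed 2-fold in either direction (median -0.37). Hspa5 was at 4808 FPKM in that group and Creld2 at 211 FPKM, each above the thapsigargin group. Of 19 PERK and ATF4 targets, however, 2 were higher and 0 lower (median 0.05), Fgf21 at 2.85 FPKM and Vldlr at 0.565 FPKM in that group. With thapsigargin over DMSO in the groups labelled Ago2+/+, which share no library with the comparison described here, 3 of 19 chaperones were higher and 0 lower (median 0.16), beside 8.27% and 6.14% of all loci. The corresponding median was 0.44 for the IRE1 list and 0.55 for the PERK and ATF4 targets.

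Interferon-stimulated genes stood higher in the thapsigargin group. Of 43 listed, 24 entered and 19 were below 1 FPKM in both groups, so that members near 0 could enter only through the group with more. Of the 24, 15 were higher and 0 lower, with a median log2 ratio of 1.36. Isg15, a ubiquitin-like modifier, was at 1.43 FPKM under DMSO and 21.4 FPKM under thapsigargin (log2 ratio 3.21). Ifit1, which binds foreign RNA ends, was at 0.148 and 4.51 FPKM, and Irf7, which amplifies interferon production, at 0.0159 and 2.34 FPKM. All 3 were below 2 FPKM in the DMSO group. Oasl1 (0.177 and 6.81 FPKM) and Oasl2 (0.0778 and 4.68 FPKM), relatives of the enzymes that sense double-stranded RNA, followed the same pattern. Bst2, which tethers budding virus to the cell, was at 11.4 and 47.6 FPKM, and Ifi27 at 11.6 and 59.8 FPKM. Trim25, a ubiquitin ligase of RNA sensing, was listed at 0 under DMSO and at 6.86 FPKM under thapsigargin. Irf9 (10.9 and 13.6 FPKM) and Ifit2 (6.68 and 10.4 FPKM) stayed within 2-fold. In the Ago2+/+ DMSO group, without stressor, Isg15 was at 39.2 FPKM, Ifit1 at 7.12 FPKM and Irf7 at 3.86 FPKM, each above the thapsigargin group, and against that group 0 of 30 members were higher and 1 was lower.

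Promoters of 3 of the higher members are shown with the core of the interferon-stimulated response element, the site of the IRF factors, searched as TTTC, any 2 bases and TTTC on both strands. Of 30 listed genes with a RefSeq promoter, 15 held it, against 3.99% of all 27025 genes. Among the members that were higher it was found for 5 of 12 (Ifit1, Isg15, Bst2, Gbp3 and Igtp), and among those below 1 FPKM for 8 of 11. Every match in the stretch is in capitals.
Isg15 (chr4:156200837-156200946, minus strand, core on the opposite strand): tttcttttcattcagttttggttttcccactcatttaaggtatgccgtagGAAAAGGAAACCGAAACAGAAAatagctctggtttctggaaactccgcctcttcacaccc
Ifit1 (chr19:34640735-34640844, plus strand): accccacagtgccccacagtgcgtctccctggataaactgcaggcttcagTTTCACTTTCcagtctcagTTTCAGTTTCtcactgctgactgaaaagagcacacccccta
Bst2 (chr8:71537543-71537652, minus strand, core on the opposite strand): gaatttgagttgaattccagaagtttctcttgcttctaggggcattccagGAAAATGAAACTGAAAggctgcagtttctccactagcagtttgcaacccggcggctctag
The Isg15 stretch holds 3 overlapping matches, which end between 69 and 57 bases before the start of the gene. The Ifit1 stretch holds 2 separate ones, ending 95 and 76 bases before it, and that of Bst2 2 overlapping ones, ending 121 and 115 bases before it.

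Among genes of double-stranded RNA sensing, upstream of interferon, the share past 2-fold was close to that of all loci (15.4% beside 15.8%). Of 13 double-stranded RNA sensors and signalling genes, all of which entered, 1 was higher and 1 lower, with a median log2 ratio of 0.26. Ifih1 (MDA5, a sensor of long double-stranded RNA) was at 0.0586 FPKM under DMSO and 4.29 FPKM under thapsigargin. Mavs, the adaptor of these sensors on mitochondria, was lower at 26.7 and 11.8 FPKM. Ddx58 (RIG-I) had 6.01 and 7.6 FPKM, and Eif2ak2 (PKR), which can phosphorylate the same translation factor as PERK, 12.4 and 12.5 FPKM. Of 18 genes of MHC class I presentation, 16 entered, 6 were higher and 0 lower, with a median of 0.49. H2-D1 was at 27.5 and 156 FPKM, H2-K1 at 25.2 and 52.2 FPKM, and the transcriptional activator of this pathway, Nlrc5, at 0.105 and 3.56 FPKM. The peptide transporter genes Tap1 (0.111 and 2.39 FPKM) and Tap2 (0.33 and 2.85 FPKM) were also higher. H2-Q4 was the remaining higher member (0.234 and 15.4 FPKM), and since class I genes are near copies, their split of fragments is uncertain. B2m, the shared light chain, had 230.1 and 298 FPKM.

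Chemokines and inflammatory cytokines were divided. Of 21 listed, 14 entered, with 5 higher, 7 lower and a median log2 ratio of -0.83. The farthest was Cxcl12, the ligand of CXCR4, at 194 FPKM under DMSO and 0.0127 FPKM under thapsigargin. It was at 0.0157 FPKM in the Ago2+/+ DMSO group and between 237 and 245 FPKM in the other 3 groups. Ccl2, which draws monocytes, was lower (59.8 and 10.3 FPKM), as were the macrophage growth factor Csf1 (258 and 70.1 FPKM) and the EGF receptor ligand Areg (65.8 and 7.05 FPKM). Il33, Cx3cl1 and Cxcl1 were the remaining lower members. In the other direction stood Ccl5 (0.712 and 27.3 FPKM), which draws T cells, Cxcl10 (0.581 and 16.0 FPKM), an interferon-induced chemokine, and Ereg (0.127 and 22.4 FPKM), another EGF receptor ligand. Il1rl1, the receptor for Il33, was at 4.43 and 37.0 FPKM, against 8.91 FPKM in the Ago2+/+ DMSO group. Lif was the last higher member.

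**Figure D3:**
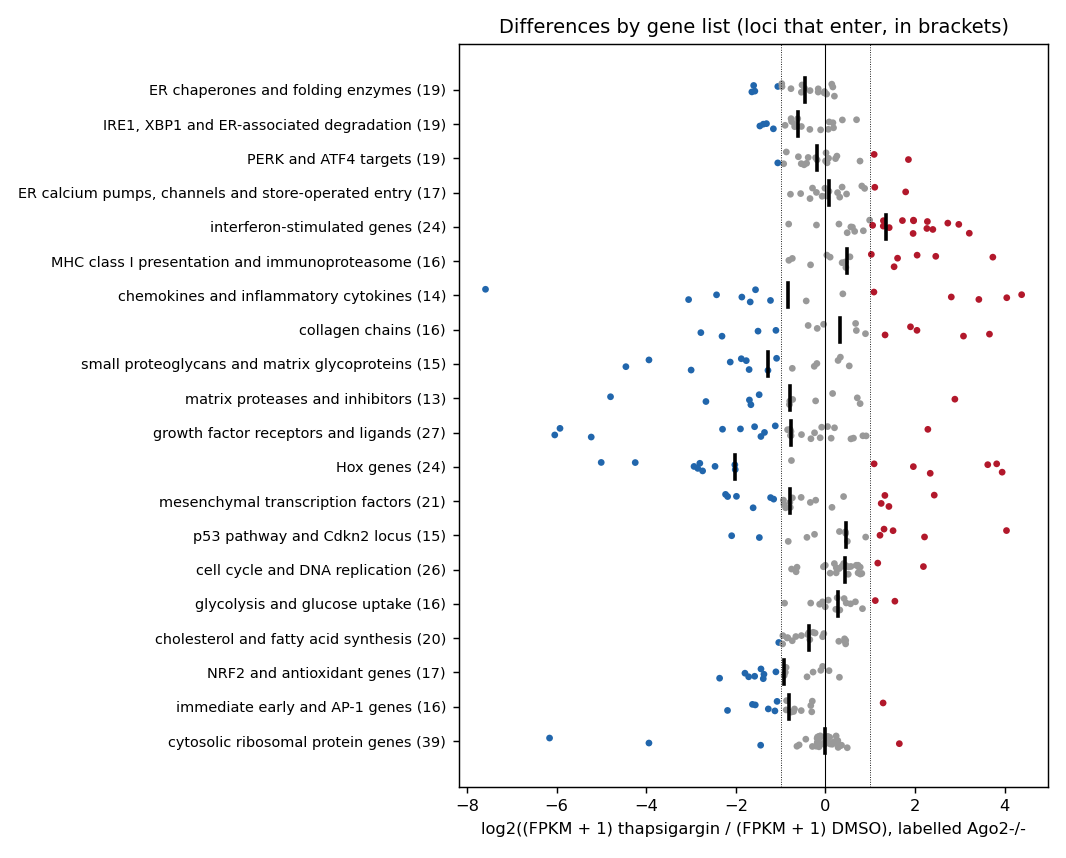
Log2 ratio of (FPKM + 1), thapsigargin over DMSO, both labelled Ago2-/- (x axis), of each locus that entered in 20 gene lists (y axis, number of loci in brackets); red and blue points are past 2-fold, the dotted lines, and black bars are list medians. Interferon-stimulated genes lie to the right (median 1.36), Hox genes fall into separate higher and lower sets, and matrix glycoproteins lie to the left (median -1.28). Against the Ago2+/+ DMSO group, not plotted, the interferon and glycoprotein medians had the opposite sign (-0.41 and 0.40).

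Growth factors and their receptors were lower more often than higher. Of 33 listed, 27 entered, with 1 higher, 9 lower and a median log2 ratio of -0.77. Past 2-fold were 37.0%, beside 15.8% of all loci. With the Ago2+/+ DMSO group as control, 24 entered, with 3 higher, 1 lower and a median of 0.03. Igfbp3, which holds insulin-like growth factors in the medium, was at 59.7 FPKM under DMSO and listed at 0 under thapsigargin. Igfbp7 was at 107 and 1.89 FPKM, and Fgf7, a fibroblast signal to epithelium, at 90.99 and 0.397 FPKM. These 3 were the farthest of the list. The PDGF receptor genes went opposite ways, with Pdgfrb lower (7.84 and 0.799 FPKM) and Pdgfra the only higher member (0.903 and 8.28 FPKM). Tgfb1 was at 19.6 and 6.61 FPKM, Vegfa at 120.1 and 54.7 FPKM and Bmp4 at 19.2 and 4.43 FPKM, all lower with Egfr and Inhba.

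The lists of extracellular matrix genes differed in direction. Of 22 small proteoglycans and matrix glycoproteins, 15 entered, with 0 higher and 9 lower (median log2 ratio -1.28). Against the Ago2+/+ DMSO group the direction was reversed, with 12 entering, 2 higher, 0 lower and a median of 0.40. Spp1 (osteopontin) was at 2015 FPKM under DMSO and 461 FPKM under thapsigargin, Fn1 (fibronectin) at 326 and 95.2 FPKM, and Mgp, an inhibitor of calcification, at 27.2 and 0.288 FPKM. The large proteoglycan Vcan (52.1 and 2.47 FPKM), Fbln1 (10.4 and 0.426 FPKM) and Thbs1 (92.0 and 24.3 FPKM) were lower too. Bgn, Ecm1 and Thbs2 completed the lower set. Sparc had 214 and 127 FPKM, inside 2-fold.

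Collagen chains were divided. Of 23 listed, 16 entered, with 5 higher, 4 lower and a median of 0.32. The fibrillar chains Col1a1 (5.97 FPKM under DMSO, 87.1 under thapsigargin), Col1a2 (23.7 and 101 FPKM) and Col5a2 (8.94 and 83.1 FPKM) were higher, with Col6a1 and Col16a1. The basement membrane chain Col4a5 (45.5 and 8.39 FPKM) and the anchoring fibril chain Col7a1 (27.9 and 3.21 FPKM) were lower, with Col5a1 and Col12a1. The partners Col5a1 (55.3 and 18.8 FPKM) and Col5a2, chains of the same trimer, thus stood on opposite sides. In the Ago2-/- tunicamycin group, Col1a1 was at 651 FPKM.

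Of 20 matrix proteases and inhibitors, 13 entered, with 1 higher, 5 lower and a median log2 ratio of -0.80. With the Ago2+/+ DMSO group as control, 11 entered, with 1 higher, 0 lower and a median of 0.15. The inhibitor Timp3 was lower, at 27.3 FPKM under DMSO and 0.0186 FPKM under thapsigargin, as was Timp1 at 336 and 119.8 FPKM. Serpinf1 and the collagenase Mmp13 were also lower. Adamts1 was higher (2.15 and 22.3 FPKM). Timp2 was nearly level at 85.0 and 95.1 FPKM.

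The contractile genes of smooth muscle ranged widely in level. Of 18 contractile genes listed, 11 entered, with 3 higher, 2 lower and a median of 0.22. Acta2 (smooth muscle actin) had 1.92 and 3.77 FPKM, against 1252 FPKM in the Ago2-/- tunicamycin group, and Tagln was higher at 0.333 and 2.33 FPKM, against 444 FPKM in that group. Tpm1, a tropomyosin found in many cell types, had the highest level of the list, at 386 and 212 FPKM, inside 2-fold. Cald1 was lower at 332 and 116 FPKM, with Synpo2, and the other higher members were Des and Mylk. Of 7 caveolins and cavins, 6 entered. Cavin2, a coat protein of caveolae, was higher at 1.03 and 85.8 FPKM and Cavin4 lower at 12.6 and 3.65 FPKM, while Cav1 (159 and 146 FPKM) and Cavin1 (170.4 and 159 FPKM) were close to level. Of 6 genes of the matricellular CCN family, 4 entered. Nov (CCN3), which the study examined, was at 0.0615 FPKM under DMSO and 2.85 FPKM under thapsigargin, and was the only higher member. The study picked Nov from genes that its RNA-seq of these cells showed raised in Ago2-/- cells, so this direction was fixed by the choice. Cyr61 (CCN1) was lower at 179 and 59.0 FPKM.

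Hox genes, which record the position along the body from which fibroblasts came, were divided by cluster. The 33 listed genes fall on 29 loci, of which 24 entered, with 6 higher, 15 lower and 3 within 2-fold (median log2 ratio -2.02). Over the full clusters, all 9 Hoxb loci that entered were lower, among them Hoxb9 (31.6 FPKM under DMSO and 0.0161 under thapsigargin) and Hoxb7 (18.0 FPKM and listed at 0). All 5 Hoxc loci that entered were lower, with Hoxc8 at 25.6 FPKM and listed at 0. No gene of either cluster reached 0.1 FPKM in the thapsigargin group. The Hoxa cluster divided by position. Hoxa9 (0.865 and 25.4 FPKM), Hoxa10 (4.87 and 21.8 FPKM) and Hoxa11 (listed at 0 and 14.4 FPKM) were higher, while Hoxa7 (19.5 and 8.48 FPKM) and the locus shared by Hoxa2 and Hoxa3 (10.2 and 1.78 FPKM) were lower. All 3 Hoxd loci that entered were higher, led by Hoxd13 (listed at 0 and 11.3 FPKM). In the Ago2+/+ DMSO group, Hoxd13 was at 6.03 FPKM, Hoxa11 at 14.1 FPKM and Hoxb9 at 0.00391 FPKM, and none of the 11 Hox loci that entered against that group passed 2-fold.

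**Figure D4:**
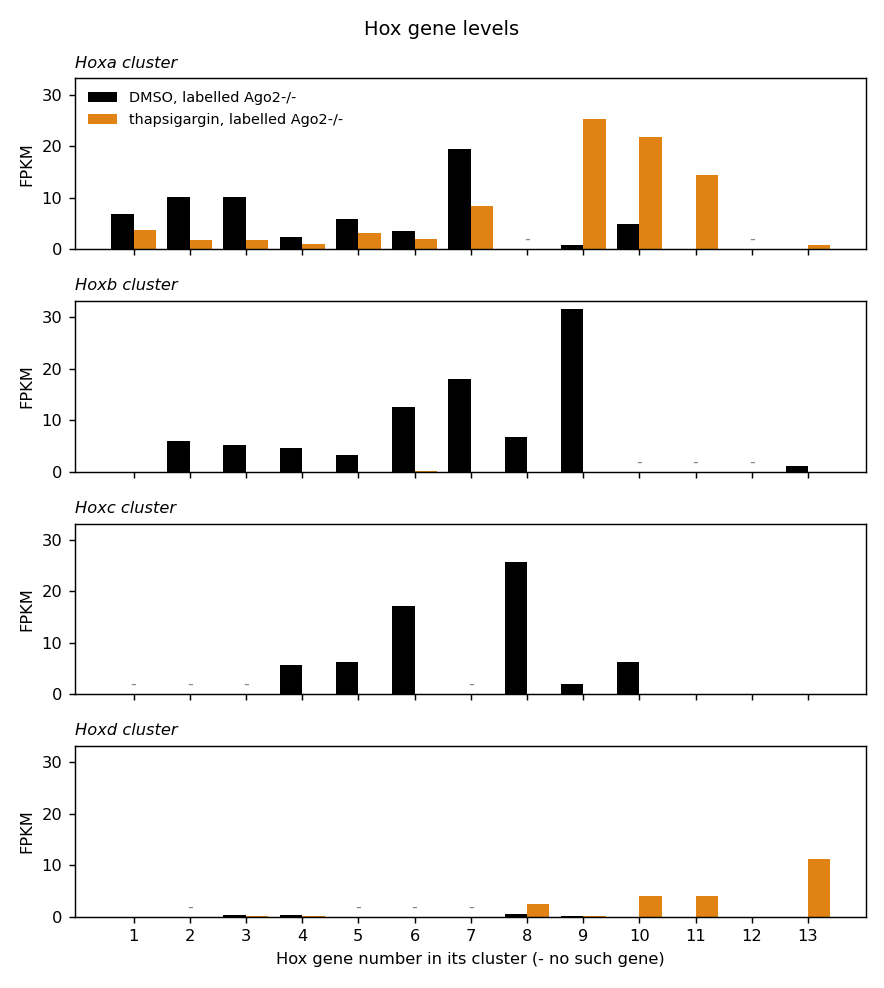
FPKM (y axis, 1 pooled value per group) of each Hox gene by its number in the Hoxa, Hoxb, Hoxc and Hoxd clusters (x axis) in the DMSO group (black) and the thapsigargin group (orange), both labelled Ago2-/-; genes that share a locus (Hoxa2 and Hoxa3, Hoxc5 and Hoxc10, Hoxd3 and Hoxd4, Hoxd10 and Hoxd11) show the same value. Hoxb and Hoxc bars are seen for the DMSO group only, and the thapsigargin bars stand above the black ones from Hoxa9 to Hoxa13 and at Hoxd8, Hoxd10, Hoxd11 and Hoxd13, while Hoxd3, Hoxd4 and Hoxd9 stay below 0.3 FPKM in both groups.

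Other regulators of mesenchymal identity also differed. Of 27 listed transcription factors, 21 entered, with 4 higher, 6 lower and a median of -0.79. Prrx2, of limb and facial mesenchyme, was lower (60.9 and 12.2 FPKM), as was Gata4, of heart and gut mesoderm (3.58 and 0.00787 FPKM). Foxd1 was at 2.96 FPKM and listed at 0, and Sox4, Snai1 and Gata6 were the remaining lower members. Meox2 was listed at 0 under DMSO and at 4.38 FPKM under thapsigargin, Tbx5, of the forelimb and heart, at 0 and 1.67 FPKM, and Twist1 at 13.5 and 33.4 FPKM, all higher with Msx1. Of 20 imprinted genes, which are read from a single parental copy, 7 entered, with 2 higher and 4 lower (median -1.65). Peg10 (27.8 and 0.39 FPKM), Sgce (12.5 and 1.44 FPKM), Ndn (11.3 FPKM and listed at 0) and Peg3 (2.13 FPKM and listed at 0) were lower. Phlda2 (5.89 and 13.8 FPKM) and Snrpn (0.207 and 1.74 FPKM) were higher.

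The p53 gene itself differed widely. Trp53 (chromosome 11, 69580359 to 69591873, GRCm38) was at 9.79 FPKM under DMSO and 176 FPKM under thapsigargin (log2 ratio 4.04), and at 165 FPKM in the Ago2+/+ DMSO group. Of 16 genes of its pathway, 15 entered, with 5 higher, 2 lower and a median of 0.45. Past 2-fold were 46.7%, beside 15.8% of all loci. With the Ago2+/+ DMSO group as control, 14 entered, with 0 higher, 0 lower and a median of -0.04. Besides Trp53, the higher members were Mdm2, the ligase that degrades p53 (20.5 and 52.1 FPKM), Ccng1 (13.5 and 32.8 FPKM), Trp53inp1 and the cell cycle inhibitor Cdkn2c (5.16 and 27.5 FPKM). The death genes Pmaip1 (NOXA, 3.27 FPKM and listed at 0) and Fas (4.19 and 0.867 FPKM) were lower. Cdkn1a (p21) had 30.3 and 57.4 FPKM, inside 2-fold, and Cdkn2a 279 and 346 FPKM.

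Among growth and metabolism lists, the share past 2-fold was 7.69% (cell cycle), 12.5% (glycolysis) and 5% (cholesterol and fatty acids), beside 15.8% of all loci. All 26 cell cycle and replication genes entered, with 2 higher (Ccnd2, 15.1 and 72.1 FPKM, and Rrm2, 61.4 and 139 FPKM), 0 lower and a median of 0.45. Mki67, the proliferation marker, had 56.2 and 72.8 FPKM. Of 17 genes of glycolysis and glucose uptake, 16 entered, with 2 higher (Tpi1, 248 and 728 FPKM, and Pfkl, 36.6 and 80.4 FPKM), 0 lower and a median of 0.29. Of 20 genes of cholesterol and fatty acid synthesis, all entered, with 0 higher and 1 lower (Cyp51, 38.9 and 18.4 FPKM) and a median of -0.36.

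Antioxidant genes were lower in larger number. All 17 NRF2 and antioxidant genes entered, with 0 higher, 8 lower and a median of -0.92. Past 2-fold were 47.1%, beside 15.8% of all loci. Against the Ago2+/+ DMSO group, 16 entered, with 0 higher, 0 lower and a median of 0.02. Nfe2l2, which encodes NRF2, was at 97.5 FPKM under DMSO and 44.8 FPKM under thapsigargin. Its targets Txnrd1 (228 and 86.4 FPKM), Srxn1 (81.6 and 26.6 FPKM), Gclc (60.5 and 22.8 FPKM) and Gstm1 (52.6 and 9.43 FPKM) were lower, with Nqo1, Gsta4 and Cat. Hmox1 had 256 and 135 FPKM, and Sod1, outside the NRF2 targets, was level at 379.8 and 364 FPKM. Of 17 immediate early and AP-1 genes, 16 entered, with 1 higher, 6 lower and a median of -0.82. With the Ago2+/+ DMSO group as control, 14 of these entered, with 0 higher, 0 lower and a median of 0.19. Fos (8.59 and 1.11 FPKM), Egr1 (50.3 and 16.3 FPKM), Junb (56.1 and 25.1 FPKM), Egr3, Fosl2 and Nr4a1 were lower. Jun, the partner of Fos, was the higher member (15.0 and 38.1 FPKM).

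In the small RNA pathway, 13 genes were listed and 11 entered. Ago2 was higher, no other member passed 2-fold, and the median was -0.29. Dicer1, which cuts small RNAs from their precursors, was at 32.7 and 32.6 FPKM, Ago1 at 10.1 and 8.3 FPKM and Ago3 at 7.31 and 5.36 FPKM. The scaffold Tnrc6a had 40.6 and 21.5 FPKM. Of the genes the study examined besides Nov, Mertk, a receptor for dying cells, was at 0.597 FPKM under DMSO and 2.96 FPKM under thapsigargin (log2 ratio 1.31). C1rl, a complement protease, had 0.161 and 0.957 FPKM and did not reach 1 FPKM in either group. Rpl19 had 1475 and 1333 FPKM. The study picked Nov, Mertk and C1rl by a filter on its RNA-seq of these cells. The filter kept only genes raised in Ago2-/- and lowered in Ago2+/+ cells with both stressors. Rpl19 was its control, without significant change in that RNA-seq. The directions of Nov, Mertk and C1rl here were therefore fixed by the choice. For Rpl19 no direction was fixed, only the small size of its difference. Apart from RNA-seq, the study followed Nov, Mertk and C1rl by PCR, by binding to AGO2 and by decay after transcription was blocked. Of the 5 TAM receptors and ligands to which Mertk belongs, all entered, with 2 higher, 1 lower and a median of -0.03. The ligand Pros1 was the other higher member (0.896 and 7.12 FPKM), and Gas6, the ligand of all 3 receptors, was at 6.39 FPKM and listed at 0.

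Ribosomal protein genes gave a near level reference with a few exceptions. Of 40 listed, 39 entered, with 1 higher, 3 lower and a median of -0.01. Past 2-fold were 10.3%, beside 15.8% of all loci. Rpl29 was at 394 FPKM under DMSO and 4.54 FPKM under thapsigargin, Rps2 at 2270.1 and 147 FPKM and Rps18 at 2409 and 884 FPKM, while Rpl30 was at 165 and 518 FPKM. Rpl29 was at 4.01 FPKM and Rps2 at 124 FPKM in the Ago2+/+ DMSO group. The largest log2 ratio of any coding locus was that of Gm10260 (6.09 and 1255 FPKM). Such genes have many near copies in the genome, and how the authors' counting shared fragments among them is uncertain.

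Among single protein-coding genes, the 12 lowest log2 ratios ran from -7.59 (Cxcl12) to -5.70 (Nid1), and the 12 highest from 7.47 (Gm10260) to 4.05 (Ccl5). Beside genes named above, the lower set held Cp, the copper oxidase ceruloplasmin (139.7 and 0.285 FPKM), Hspb1, a small heat shock protein (108 and 0.0687 FPKM), Aldh3a1, an aldehyde dehydrogenase (104 and 0.0896 FPKM), and Cyp1b1, a cytochrome P450 (77.1 and 0.0265 FPKM). Nid1, a linker of basement membranes (51.1 and 0.00266 FPKM), Cd24a (59.7 and 0.022 FPKM), Afap1l2 (152 and 0.0253 FPKM) and Cep126 (122 and 0.174 FPKM) completed it. These 8 were at most at 0.285 FPKM in the thapsigargin group and at most at 0.33 FPKM in the Ago2+/+ DMSO group, in both cases Cp. The higher set held Crabp2, which carries retinoic acid (0.383 and 39.4 FPKM), Map2, a microtubule protein (0.00909 and 19.9 FPKM), Ucp2, a mitochondrial carrier (0.0609 and 18.4 FPKM), and Epb41l3, a membrane skeleton protein (0.101 and 41.9 FPKM). Eps8l2, Nipsnap1, Tgfb1i1 and Lxn, each between 18.3 and 26.4 FPKM under thapsigargin, completed the higher set. In the Ago2+/+ DMSO group these 8 genes were between 15.2 FPKM (Tgfb1i1) and 57.2 FPKM (Ucp2).

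Loci that are not single protein-coding genes were ranked apart. Lowest were mt-Tm, a mitochondrial tRNA gene (449 FPKM in the DMSO group and listed at 0 in all other groups), and 4 loci of mitochondrial copies in chromosome 1, of which Gm10925 was at 2499 and 4.36 FPKM and Gm28661 at 2264 and 4.26 FPKM. Highest were mt-Tl1 (listed at 0 and 141 FPKM), Gm8226 (0.494 and 106 FPKM), Mir5136, Snord53 and Mir5125, the last 3 listed at 0 in every other group. By kind of locus, 14.6% of 10597 protein-coding loci were past 2-fold (695 higher and 852 lower), 22.5% of 479 long noncoding RNAs, 17.7% of 1042 pseudogenes and 73.0% of 141 small RNA loci. Values of RNAs far shorter than a fragment are uncertain in this kind of library.

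The ratios also differed by chromosome. Over 8379 loci with at least 5 FPKM in both groups, the median log2 ratio was -0.02. Of these, 48.1% were higher and 51.9% lower in the thapsigargin group to any extent. Chromosome 12 stood at 0.36, with 79.2% of its 298 loci higher in the thapsigargin group to any extent, chromosome 6 at 0.31 (72.2% of 385) and chromosome 16 at 0.22 (69.7% of 261). In the other direction, chromosome 2 stood at -0.31 with 77.4% of its 704 loci lower, chromosome 17 at -0.29 (75.2% of 424) and chromosome 1 at -0.29 (74.4% of 473). The remaining 14 medians lay between -0.15 and 0.10. Cut into 6 segments of equal locus number along its length, chromosome 12 gave medians between 0.30 and 0.41 in every segment. Chromosome 6 gave 0.21 to 0.40 in the first 5 and -0.07 in the last. Along chromosome 17 the outer segments stood at -0.72 and -0.52 and the middle reached -0.04. Against the Ago2+/+ DMSO group, chromosome 12 stood at 0.27, chromosome 6 at 0.21 and chromosome 2 at -0.20, while chromosomes 1, 16 and 17 stood at -0.04, -0.09 and 0.01. Trp53 lies on chromosome 11, whose median was 0.07.

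**Figure D5:**
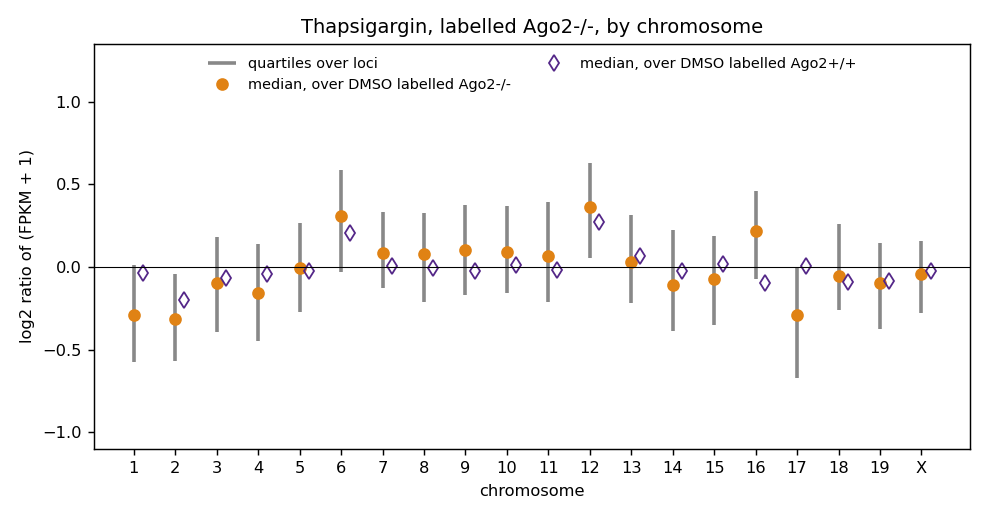
Median log2 ratio of (FPKM + 1) on each chromosome (x axis), thapsigargin over DMSO, both labelled Ago2-/- (orange points, with grey bars for the quartiles over loci), and thapsigargin labelled Ago2-/- over DMSO labelled Ago2+/+ (open diamonds), over loci with at least 5 FPKM in both groups of the labelled Ago2-/- comparison. Chromosomes 6 and 12 lie above 0 and chromosome 2 below 0 with either control, and chromosomes 1 and 17 lie at -0.29 with DMSO labelled Ago2-/- but at -0.04 and 0.01 with DMSO labelled Ago2+/+.

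Set beside thapsigargin over DMSO in the groups labelled Ago2+/+, the loci past 2-fold in both comparisons mostly had opposite signs. The libraries are separate, but the Ago2+/+ DMSO group, the control there, differed from the thapsigargin group here at only 2.35% of loci. With such a close pair on opposite sides of the 2 ratios, opposite signs were set in advance, and the counts are given as values only. That comparison had 1012 higher (8.27%) and 751 lower (6.14%) loci among 12236 (14.4% in all). Of the 883 loci higher in the comparison described here, 70 were also higher there (7.93% of these and 6.92% of those), and 280 were lower there (31.7% and 37.3%). Of the 1061 lower loci, 85 were also lower there (8.01% and 11.3%) and 326 were higher (30.7% and 32.2%). The interferon-stimulated genes show this, with 15 of 24 higher here and 15 of 30 lower there (median log2 ratio -1.01), and the matrix glycoproteins, with 9 of 15 lower here and 14 of 17 higher there (median 2.17). In both comparisons, treatment and the origin of the libraries cannot be told apart.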

How the data were processed

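RNA-seq of MEFs was used in 6 groups of 3 libraries, grouped by the library titles. The authors aligned reads with HISAT2 (2.1.0), assembled transcripts with StringTie (1.3.4d) on Ensembl release 91 and quantified them with Cuffdiff (2.2.1), versions per the submitters' processing notes, which also name FastQC (0.11.7). They deposited FPKM as 1 value per group and locus, normalized for transcript length and mapped fragments over 3 libraries. The authors' fold change, test statistic, p, q and status columns in the same table were not used. Low values left no steps from which reads could be recovered.

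From the deposited FPKM, log2 ratios were computed with Python 3.11.15 and pandas 2.3.3, with a pseudocount of 1 FPKM, a floor of 1 FPKM in either group and a threshold of 2-fold. The calls were checked on a copy of the DMSO values without noise, with 200 loci changed by more than 2-fold. That checks the code only, not how sure a call from pooled values is. Locus coordinates (GRCm38) start at 0 in the table and are given from 1. Gene kinds came from GENCODE M21. The 33 gene lists and the members were chosen with earlier results of these data known. Lists were counted by locus, and 5 of 605 listed genes had none. Named are the core members and 4 farthest members of each list, the 12 highest and 12 lowest coding loci, the 5 highest and lowest other loci, and the genes the study examined, with further list members chosen after their values were seen. Another pseudocount, other floors, centring, subsets of loci and another DMSO control were tried. The split by chromosome and the promoter search were chosen after the data were seen. Results that need a few withheld genes are not reported here.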

Additional observations from a re-analysis of the deposited data

How the results depend on the processing

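With a floor of 5 FPKM, 1272 loci passed 2-fold, 531 higher and 741 lower, as fewer loci entered. With DMSO labelled Ago2+/+ as control, 277 loci did so, 143 higher and 134 lower. A pseudocount of 0.1 FPKM gave 1158 higher and 1342 lower loci, centring on the median 908 and 1030, single-symbol loci 868 and 1027 and protein-coding loci 695 and 852, and without a floor both counts were those given above. The lower loci outnumbered the higher ones under each of these settings except the Ago2+/+ DMSO control, where the higher ones were more. With that control the median log2 ratio took the opposite sign in 20 of 32 lists, and the cause was not tested. Among them were the interferon-stimulated genes (-0.41, 0 higher and 1 lower), the collagen chains (-0.36) and the growth factors and receptors (0.03, 3 higher and 1 lower). The matrix glycoproteins (0.40), matrix proteases and inhibitors (0.15), antioxidant genes (0.02) and immediate early genes (0.19) were others. Of 66 list counts, 14 moved by over 1.5 times with the floor of 5 FPKM, among them the interferon-stimulated genes (5 higher) and MHC class I (3 higher), and 6 with the pseudocount of 0.1 FPKM. No paired analysis was possible because the table holds 1 pooled value per group, and leaving out each library could not be run for the same reason. Depth is unknown, so low levels have no floor of detection.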

Other observations

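A further set was chosen after its values were seen, and is given as values only. It holds the aryl hydrocarbon receptor, which senses planar aromatic compounds, and its known target genes. Of 7 genes, 6 entered, with 0 higher, 5 lower and a median log2 ratio of -2.41. Ahr was at 23.3 FPKM in the DMSO group and 1.99 FPKM in the thapsigargin group. Cyp1b1 was at 77.1 and 0.0265 FPKM, Aldh3a1 at 104 and 0.0896 FPKM, Nqo1 at 5.12 and 0.763 FPKM, and Cyp1a1 at 1.01 FPKM and listed at 0. Tiparp, another target, had 27.9 and 38.4 FPKM. In the Ago2+/+ DMSO group, Ahr was at 1.87 FPKM and Cyp1b1 at 0.02 FPKM, and in the Ago2+/+ tunicamycin group they were at 23.2 and 132 FPKM.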
